A study of Mus musculus with 4 samples.

Results

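The BCL2 family decides whether a cell keeps its mitochondria intact or dies. Survival proteins (BCL2, BCL-XL from Bcl2l1, MCL1 and A1 from the Bcl2a1 genes) hold the pore formers BAX and BAK1 in check. The BH3-only proteins BIM (Bcl2l11), PUMA (Bbc3) and NOXA (Pmaip1) bind the survival proteins and release the pore formers, and BIM is known for the death of T cells that lose antigen or cytokine signals. The 9 genes Bcl2, Bcl2l1, Mcl1, Bcl2l11, Bcl2a1b, Bax, Bak1, Bbc3 and Pmaip1 were taken for their place in this family, and every array row that carries one of these gene names was used. Of the 9 genes, 8 had rows, with 19 probes in all, among 23666 genes with a current symbol on the array. Bcl2a1b had no row under its own name, and its transcripts are listed on a probe named Bcl2a1d.

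The cells were mouse CD4+ T cells measured on 4 single-colour arrays. There were 2 genotypes (WT and Nr4a-TKO) at 2 stages (naive T and iTreg after 3 h), with 1 array for each combination. Nr4a-TKO cells carry floxed Nr4a1, floxed Nr4a2 and Nr4a3-/- alleles, so that 3 nuclear receptor genes are targeted, and the Cre driver is not given in the sources used here. All mice were C57BL/6J, 6 to 8 weeks old, and all cells developed in irradiated Rag2-/- recipients and carried a Foxp3 hCD2-hCD52-KI reporter. Nr4a-TKO cells came from chimeras given WT and Nr4a-TKO marrow at 1:1, and WT cells from chimeras given WT marrow alone, so the genotypes also differ in the kind of chimera. Naive T cells (CD25low, CD44low, CD62L-high, Foxp3-) were sorted 6 weeks after transplant. For iTreg, induced regulatory T cells, they were then kept for 3 h with plate-bound anti-CD3 (2 µg/ml), anti-CD28 (0.5 µg/ml), antibodies to IFN-γ and IL-4, IL-2 (10 ng/ml) and TGF-β1, for which the labels give both 0.2 and 0.5 ng/ml without saying which was used for the arrays. The number of animals behind each array is not given in the sources used here.

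Each level below is the log2 processed intensity of a probe minus the 75th percentile of its array, so 0 stands for that percentile. Such levels compare 1 probe across arrays, and not 1 probe with another. A gene is represented by its lead probe, the one with the highest mean over the 4 arrays, and counts as changed where that probe differed by 2-fold or more. With 1 array per group no test was made, since the only residual of an additive model of stage and genotype is the difference between the 2 changes, itself a comparison of interest. The error at hand is that of repeated spots within an array. The SD of a difference between repeated spots was 0.28 (log2) for levels below 0, 0.09 for levels from 0 to 3 and 0.06 for levels of 3 and above, and it leaves out all variation between animals and cultures. The 4 arrays lay on 1 slide and were read in 1 scan, between 64.9% and 67.6% of their probes were well above background, and no spot was saturated.

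The label check came first, since every genotype comparison rests on it. The Nr4a1 probe read 0.27 on the WT and 1.56 on the Nr4a-TKO array of naive T, then 4.69 and 5.19 at 3 h. Nr4a1 was thus higher on both arrays labelled Nr4a-TKO, and both Nr4a2 probes were too, by 1.40 and 1.38 at 3 h. Of the 3 Nr4a3 probes, 2 read lower at 3 h on the array labelled Nr4a-TKO, by 1.55 and 1.97, and the other was higher by 0.22. Whether these probes lie in the deleted parts is not given in the sources used here, so Nr4a1 and Nr4a2 go against the label or cannot check it, and every genotype direction below is that of the arrays as labelled. Foxp3, whose reporter the sort excluded, was 2.53-fold lower in naive T and 2.78-fold lower at 3 h on the arrays labelled Nr4a-TKO. The 4 CD4 T cell markers were well above background on every array. The summed level of 4 naive T cell markers (linear, in multiples of the 75th percentile) was 41.9 and 40.3 in naive T and 12.3 and 9.56 at 3 h, and that of 4 early activation markers went from 35.4 and 40.7 to 191 and 210, WT first.

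The probes that carry the main results are shown by the first 30 of their 60 bases, as printed on the array, 5′ to 3′, so that a reader can tell which stretch of each gene was read. The Bcl2l1 lead probe lies at chr2:152606404-152606463 on the minus strand and the Bax lead probe at chr7:52717122-52717181 on the minus strand (mm9). Of the Bcl2l11 probes, the lead lies at chr2:127957112-127957171 and 1 that crosses an intron at chr2:127972893-127983988, both on the plus strand. The probe named Bcl2a1d lies at chr9:88618165-88618224 on the minus strand, and that named Bcl2a1c at chr9:114239422-114239481 on the plus strand. The positions are those given with the array, and no gene models of this build were used, so exon and UTR positions are not given.
Bcl2l1 lead: atagtttgtgtgaaggtgaaagtgcagttc
Bax lead: tcctgggatgaatgggggaaggggaaaggc
Bcl2l11 lead: ttgtttactgtttggaagtcgttttactcg
Bcl2l11 across an intron: ggatcggagacgagttcaacgaaacttaca
Bcl2a1d: cacttggcatttccatttacaaacatgaaa
Bcl2a1c: agaacctaaagtcatacttggatgactttc
The Bcl2a1d and Bcl2a1c probes share no run longer than 6 bases, so they read their transcripts through different letters.

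**Figure D1:**
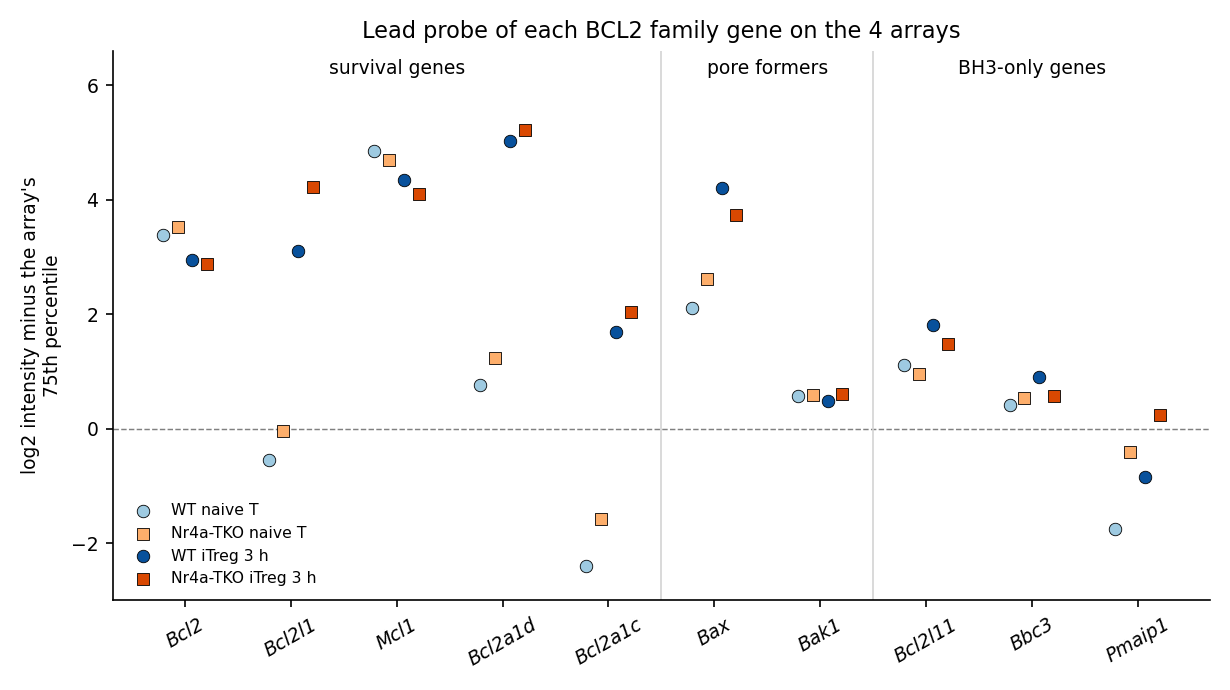
Level of the lead probe of each gene on the 4 arrays, as log2 intensity minus the 75th percentile of the array; each point is 1 array, and heights are comparable within a gene only. Bcl2l1, Bcl2a1d, Bcl2a1c and Bax stand higher on both arrays at 3 h than on both naive arrays, while Bcl2 and Mcl1 stand lower.

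Genes of the same role differed in their change over the first 3 h of culture. Among survival genes, the lead probes of Bcl2l1 and the A1 genes rose by more than 10-fold in both genotypes, while Bcl2 and Mcl1 were lower at 3 h by less than 2-fold. Of the pore formers, Bax rose and Bak1 stayed within 0.09 of its naive level. In WT, 2 of the 8 measured members (Bcl2l1 and Bax) rose by 2-fold or more, against 10.4% of all 17277 genes measured, and none fell that far, against 11.9%. On the arrays labelled Nr4a-TKO the same 2 members rose, against 9.85% of 17488 genes, and none fell, against 10.9%. The median change of the 8 members was 0.59 (log2) for WT, where all genes had -0.12, and 0.27 for Nr4a-TKO, where all genes had -0.08. With 8 members, a count of 2 differs little from these background shares, so the count says nothing particular about the family, and what follows is about its single genes. These are bulk samples, in which more RNA per cell and more cells of a kind cannot be told apart.

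Bcl2l1, whose long product BCL-XL protects activated lymphocytes, had the largest rise of the 8 members with rows. Its lead probe read -0.55 in WT naive T, -0.04 in Nr4a-TKO naive T, 3.10 in WT iTreg and 4.22 in Nr4a-TKO iTreg. Both 3 h arrays lay far above both naive arrays, and the Nr4a-TKO array was the higher of its pair each time. The rise was 3.64 (log2), or 12.5-fold, in WT and 4.25, or 19.1-fold, in Nr4a-TKO. Counted from the highest, these were ranks 46 of 17277 genes and 15 of 17488. The other 4 probes of the gene also rose past 2-fold in both genotypes. A second probe, at chr2:152655185-152655244, rose by 3.39 and 4.02 (WT first), that at chr2:152606400-152606446 by 1.94 and 2.19, and that at chr2:152655730-152655789 by 2.91 and 3.49. The position given for the probe at chr2:152606400-152606446 overlaps that of the lead. Their sequences share no run longer than 5 bases on either strand, so at least 1 of these positions is in doubt. The remaining probe, at chr2:152655618-152655677, was not well above background on either naive array and gave bounds of at least 7.74-fold in WT and at least 13.5-fold in Nr4a-TKO, against the higher of the probe's own naive signal and the lowest signal well above background on that array. The 5 probes thus share the direction, and the 4 measured on all arrays rose more in Nr4a-TKO than in WT.

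The A1 genes encode a short-lived survival protein of blood cells and exist in mice as near-identical copies. The probe named Bcl2a1d lists transcripts of 3 of them, Bcl2a1a, Bcl2a1b and Bcl2a1d, so its signal cannot be split between them and is the closest reading of Bcl2a1b here. It read 0.77 in WT naive T, 1.23 in Nr4a-TKO naive T, 5.02 in WT iTreg and 5.22 in Nr4a-TKO iTreg. This is a rise of 19.0-fold in WT, at rank 15 of 17277 genes, and of 15.9-fold in Nr4a-TKO. Bcl2a1c, read by a probe of its own, went from -2.40 and -1.57 in naive T (WT first) to 1.69 and 2.03 at 3 h, a rise of 17.0-fold and 12.1-fold. The A1 probes and the lead probe of Bcl2l1 were thus all above 10-fold in both genotypes. That lead rose less than both A1 probes in WT and more than both in Nr4a-TKO. The other Bcl2l1 probes measured on all arrays rose 3.82-fold to 10.5-fold in WT and 4.56-fold to 16.2-fold in Nr4a-TKO. The order in Nr4a-TKO therefore depends on the probe.

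Both A1 probes rose, and the promoters of the 4 copies they list are shown (GRCm38.p6, RefSeq) over 118 bases, lined up on the AGGAAG nearest the start site. Capitals mark AGGAAG, the core of Ets factor sites, and TGANTCA, the core of AP-1 sites, both searched on both strands. The windows are chr9:88956794-88956911 (plus strand) for Bcl2a1a, chr9:89199103-89199220 (plus) for Bcl2a1b, chr9:88731859-88731976 (minus) for Bcl2a1d and chr9:114329899-114330016 (plus) for Bcl2a1c.
Bcl2a1a: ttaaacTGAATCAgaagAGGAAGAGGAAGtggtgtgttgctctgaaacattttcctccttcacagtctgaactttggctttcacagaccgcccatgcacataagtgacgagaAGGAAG
Bcl2a1b: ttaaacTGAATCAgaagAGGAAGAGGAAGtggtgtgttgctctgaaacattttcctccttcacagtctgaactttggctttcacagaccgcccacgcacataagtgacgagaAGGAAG
Bcl2a1d: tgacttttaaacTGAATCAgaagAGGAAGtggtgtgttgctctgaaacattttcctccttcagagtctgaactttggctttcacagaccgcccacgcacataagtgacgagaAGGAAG
Bcl2a1c: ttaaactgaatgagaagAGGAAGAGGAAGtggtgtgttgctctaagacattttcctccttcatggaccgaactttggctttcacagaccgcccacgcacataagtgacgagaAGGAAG
Bcl2a1a and Bcl2a1b match at 117 of 118 positions, and Bcl2a1c matches Bcl2a1b at 111. Bcl2a1d has 1 copy of AGGAAG in the upstream pair where the others have 2, and matches Bcl2a1b at 107 positions when lined up without gaps. TGANTCA stands just upstream in Bcl2a1a, Bcl2a1b and Bcl2a1d, and has no match in the Bcl2a1c window.

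The same search ran over 16 promoter windows of 11 family genes, of 300 bases each. A gene counts with a match in any of its windows, while the share of all promoters is counted window by window. The counts and shares below are thus not like for like, and no enrichment is read from them. AGGAAG was found in 7 of the 11 genes, the near-identical A1 copies among them, and in 35.4% of all 32851 promoters of that length. TGANTCA was found in 3 genes, the A1 copies above, and in 7.81% of promoters. GGGNNTTCC, a core of NF-κB sites that can overlap AGGAAG, was found in Bcl2l1 and Bbc3 and in 5.82% of promoters. AAAGGTCA, a single site bound by Nr4a factors, was found in none of the 11 genes and in 1.51% of promoters. The form with T in place of the first G, which the authors also give, was not searched, nor were other Nr4a motifs. The p53 decamer, searched by its consensus, was found in Bax alone and in 8.36% of promoters. In Bcl2l1 the NF-κB match lies upstream of 1 of 3 annotated start sites, at position -122 from it, in chr2:152830805-152830865 on the minus strand (GRCm38.p6), with the match in capitals on the opposite strand.
Bcl2l1: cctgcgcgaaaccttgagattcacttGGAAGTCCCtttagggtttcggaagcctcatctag
These are letter matches in short windows, and binding was not measured on these arrays.

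Bcl2 and Mcl1, the survival genes of resting T cells, were lower at 3 h by every probe and on both sets of arrays, but by less than 2-fold. The Bcl2 lead probe (chr1:108608970-108609029, minus strand) read 3.39 in WT naive T, 3.53 in Nr4a-TKO naive T, 2.95 in WT iTreg and 2.87 in Nr4a-TKO iTreg. Its change was -0.44 in WT and -0.66 in Nr4a-TKO. The other 2 Bcl2 probes changed by -0.68 each in WT and by -0.78 and -0.62 in Nr4a-TKO. The Mcl1 lead probe (chr3:95466855-95466914, plus strand) read 4.85 in WT naive T, 4.69 in Nr4a-TKO naive T, 4.35 in WT iTreg and 4.09 in Nr4a-TKO iTreg. That was a change of -0.50 and -0.60, and the second Mcl1 probe changed by -0.49 and -0.79. All of these exceed the spread of repeated spots, but in WT 26.9% of measured genes had a lower change than Mcl1 and 29.8% a lower one than Bcl2.

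**Figure D2:**
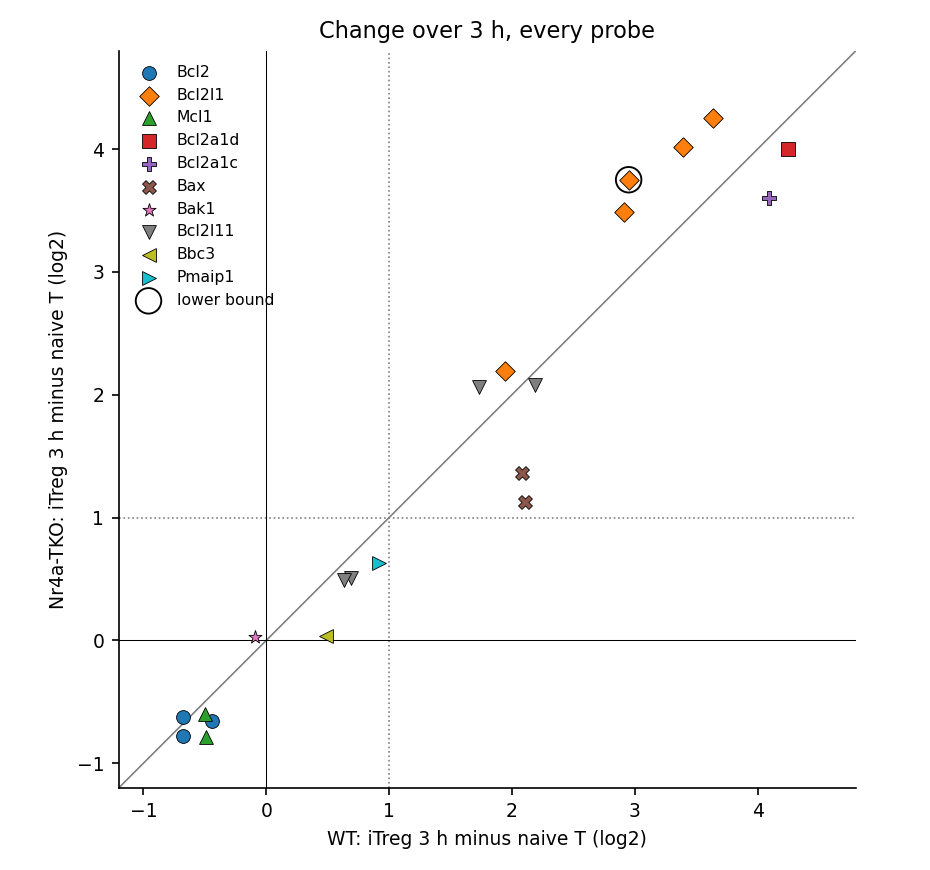
Change of every probe from naive T to iTreg at 3 h (log2), WT on the x axis and Nr4a-TKO on the y axis; the grey diagonal marks equal change, dotted lines mark 2-fold, and the circled probe gives lower bounds only. The 4 Bcl2l1 probes measured on all arrays lie above the diagonal, while the 2 Bax probes and both A1 probes lie below it.

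Bax, which forms the pore in the mitochondrial membrane, rose in both genotypes, and by more in WT. The lead probe read 2.11 in WT naive T, 2.61 in Nr4a-TKO naive T, 4.21 in WT iTreg and 3.74 in Nr4a-TKO iTreg. The naive arrays do not overlap with the 3 h arrays, and the genotypes change order between the stages. The rise was 4.31-fold in WT, rank 373 of 17277 genes, and 2.19-fold in Nr4a-TKO. A second Bax probe, at chr7:52721469-52721624, whose span of 156 bases crosses an intron, rose by 2.08 (log2) in WT and by 1.36 in Nr4a-TKO. Bak1, the other pore former, read 0.57 and 0.58 in naive T and 0.48 and 0.60 at 3 h, WT first (chr17:27156807-27156866, minus strand). Its 4 values lie within 0.12 of each other, close to the spread of repeated spots at that level.

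Bcl2l11, the gene of BIM, gave different sizes of change by probe, and the probes fall into pairs by transcript. The lead probe, on transcript NM_001284410, read 1.12 in WT naive T, 0.96 in Nr4a-TKO naive T, 1.81 in WT iTreg and 1.47 in Nr4a-TKO iTreg. Its change of 0.69 in WT and 0.51 in Nr4a-TKO was under 2-fold, and the other probe of that transcript, at chr2:127954736-127955417, changed by 0.63 and 0.49. The 2 probes of transcript NM_207680 lie further along the gene and rose past 2-fold in both genotypes. The one at chr2:127988051-127988110 read 0.84 and -0.08 in naive T and 2.57 and 1.98 at 3 h, WT first, and rose 3.33-fold in WT and 4.17-fold in Nr4a-TKO. The one across an intron at chr2:127972893-127983988 read -0.74 and -1.17, then 1.45 and 0.91, and rose 4.57-fold and 4.23-fold. The count of members past 2-fold thus leaves Bcl2l11 out because its brightest probe is 1 of the pair with the smaller change.

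Bbc3, the gene of PUMA, read 0.42 in WT naive T, 0.53 in Nr4a-TKO naive T, 0.91 in WT iTreg and 0.57 in Nr4a-TKO iTreg (chr7:16903403-16903462, plus strand). The WT iTreg array was the highest, 0.49 above WT naive T, and the 3 others lay within 0.15 of each other.

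Pmaip1, the gene of NOXA, was in naive T the member that differed most between the arrays labelled WT and Nr4a-TKO. It read -1.76 in WT naive T, -0.40 in Nr4a-TKO naive T, -0.84 in WT iTreg and 0.23 in Nr4a-TKO iTreg, by its 1 probe. Within each genotype it was higher at 3 h, by 0.92 for WT and 0.63 for Nr4a-TKO, and the Nr4a-TKO naive array already stood above the WT array at 3 h. Its naive difference of 1.36 (2.58-fold) was rank 240 of 17280 genes, and its difference at 3 h was 1.08 (2.11-fold). Both fell under 2-fold with normexp at an offset of 50 and quantile normalization (0.72 and 0.66), and with no background correction (0.93 and 0.87). The difference at 3 h also did so with normexp at an offset of 0 and quantile normalization (0.98). These low levels carry the largest error of repeated spots, an SD of 0.28, and the gene has no second probe to set beside it.

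Between the genotypes in naive T, Pmaip1 was the 1 member past 2-fold, higher in Nr4a-TKO, against 2.67% of all 17280 genes, and none was lower, against 2.37%. At 3 h, 2 members were higher, Bcl2l1 by 1.12 (2.18-fold, rank 381 of 17520 genes) and Pmaip1, against 2.73%, and none was lower, against 2.55%. The Bcl2l1 difference was 0.66 to 1.12 over its 5 probes at 3 h, and 0.24 to 0.51 over the 4 probes measured in naive T. Each of the 5 was higher in Nr4a-TKO at 3 h, but only the lead was past 2-fold. Bcl2l11 went the other way, with all 4 probes lower in Nr4a-TKO at both stages, by 0.16 to 0.92 in naive T and by 0.34 to 0.59 at 3 h. Mcl1 was lower in Nr4a-TKO by 0.16 and 0.03 in naive T and by 0.26 and 0.33 at 3 h. The A1 probes were higher in Nr4a-TKO at both stages, by 0.45 and 0.20 for Bcl2a1d and by 0.82 and 0.34 for Bcl2a1c, naive T first. The median difference over the 8 members was 0.13 in naive T and -0.17 at 3 h, where that of all genes was -0.01 and 0.02.

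**Figure D3:**
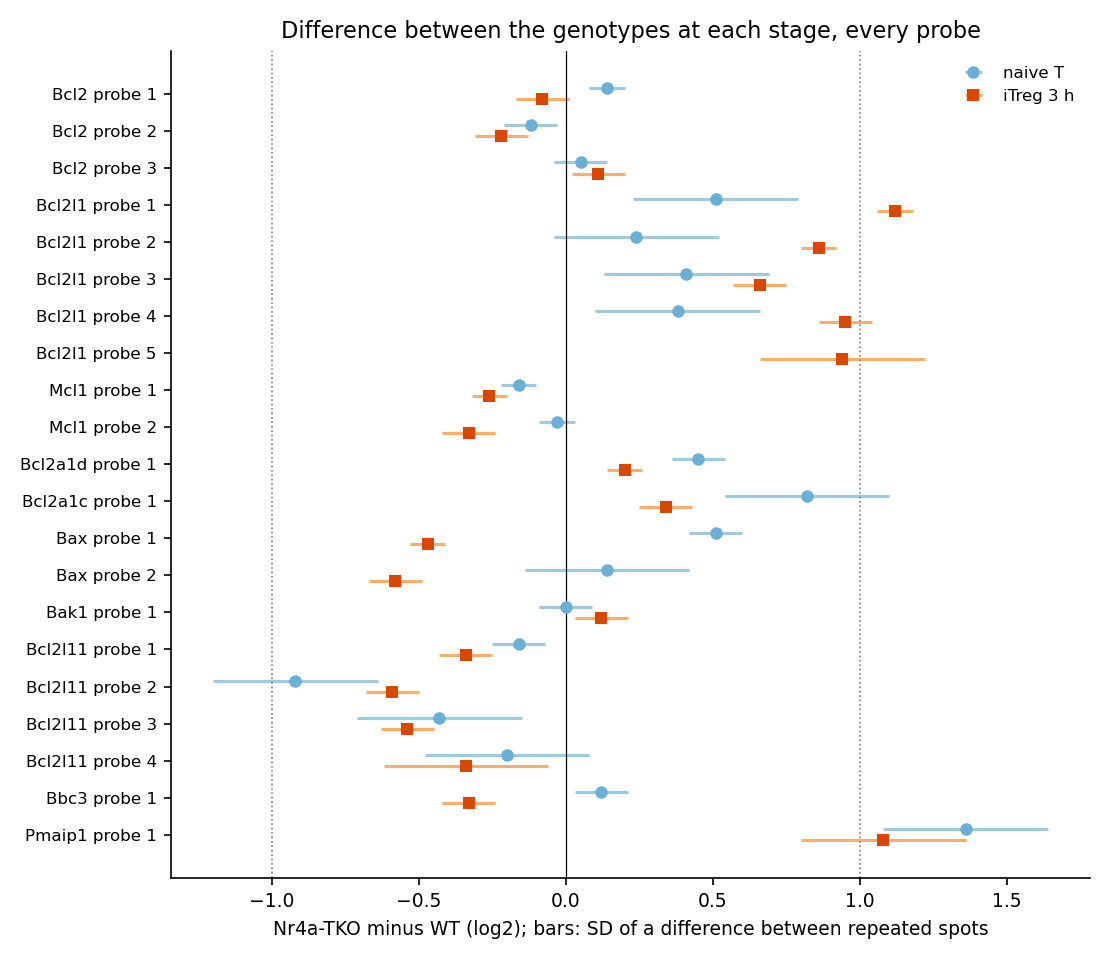
Nr4a-TKO minus WT (log2) for every probe in naive T (circles) and in iTreg at 3 h (squares); bars are the SD of a difference between repeated spots at that level, not of replicates, and dotted lines mark 2-fold. Bcl2l1 and Pmaip1 lie to the right at 3 h, Bcl2l11 to the left at both stages, and the 2 Bax probes move from right to left.

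The change over 3 h was compared between the genotypes as the change in Nr4a-TKO minus that in WT. No member passed 2-fold in this difference, against 2.85% of 14921 genes higher and 2.37% lower. Bax came closest at -0.98, rank 364 from the lowest, with -0.72 by its second probe. It was 0.51 higher in Nr4a-TKO naive T and 0.47 lower in Nr4a-TKO iTreg. Bcl2l1 had 0.61 by the lead probe and 0.25 to 0.63 over the 4 probes measured on all arrays. Bbc3 had -0.45, Pmaip1 -0.29, Bcl2 -0.23, Bcl2l11 -0.19, Mcl1 -0.10 and Bak1 0.12. The sign of Bcl2l11 depends on the probe, with -0.13 to 0.33 over its 3 other probes, and it turned positive under 3 other settings. This difference uses all 4 arrays and so adds up their error.

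Markers of other cells are given beside these genotype differences. The 3 B cell markers Cd79a, Cd79b and Ms4a1 were well above background on all arrays, and their summed level (linear, in multiples of the 75th percentile) was 4.64 in WT naive T, 5.07 in Nr4a-TKO naive T, 2.44 in WT iTreg and 3.54 in Nr4a-TKO iTreg. The sum was higher on both arrays labelled Nr4a-TKO, as Bcl2l1, the A1 probes and Pmaip1 were, but the single markers differed. Nr4a-TKO minus WT in naive T was 0.69 (log2) for Cd79a, -0.55 for Cd79b and 0.09 for Ms4a1. At 3 h it was 1.21, 0.98 and 0.05. The part of these markers in the differences of Bcl2l1, the A1 probes and Pmaip1 was not tested. Cd8a and Cd8b1 together were at 0.604 to 1.25. Of the myeloid markers, Lyz2 was between -3.68 and -3.03 (log2), near the lowest signal above background, and Cd14 was -0.33 in WT and -3.52 in Nr4a-TKO naive T, then not well above background in WT and -2.90 in Nr4a-TKO at 3 h, while the single probes taken for Itgam and Csf1r were bright on every array, at 8.17 to 8.52 and 4.31 to 4.72. The NK cell marker Ncr1 was not well above background on any array, and Klrb1c was so on 3 of 4, at -3.86 to -3.15.

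Of the other BCL2 family genes, 13 of 17 were measured. In WT, 3 rose and 3 fell by 2-fold or more, against 10.4% and 11.9% of all genes. Besides Bcl2a1d and Bcl2a1c, Bid, a BH3-only gene that links death receptors to mitochondria, rose by 1.20 (WT) and 1.06 (Nr4a-TKO). Bad, the BH3-only gene controlled by growth factor signals, fell by 2.06 and 1.56 (log2), and the mitophagy receptor gene Bnip3l fell by 1.38 and 1.24. Bnip3 changed by -1.44 in WT and by -0.59 in Nr4a-TKO. On the arrays labelled Nr4a-TKO, 3 rose and 4 fell, against 9.85% and 10.9% of all genes. Among those that fell, Hrk was at least 2.30-fold lower and Bcl2l12 2.01-fold lower. No gene of this list was past 2-fold between the genotypes at either stage by its lead probe. A probe of Bcl2l13 other than the lead was 1.42 higher in Nr4a-TKO naive T, where the lead had -0.11. The list medians were -0.42 in WT and -0.16 in Nr4a-TKO.

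In the caspase machinery that acts after the pore opens, 13 genes were counted and all were measured. In WT, 3 rose and 1 fell by 2-fold or more, against 10.4% and 11.9% of all genes. In Nr4a-TKO, 2 rose and none fell by the lead probe, against 9.85% and 10.9%. Cycs, the cytochrome c gene, rose by 1.66 (WT) and 1.67 (Nr4a-TKO), and Birc3, which encodes an inhibitor of apoptosis and is a known NF-κB target, by 1.34 and 1.33. Diablo, whose product blocks such inhibitors, rose by 1.27 in WT and changed by 0.85 in Nr4a-TKO. Its 3 other probes changed by 1.09 to 1.60 in WT and by 0.05 to 0.20 in Nr4a-TKO. Casp6 fell by 1.33 in WT. Counted as unchanged by their lead probes, Casp9 and Apaf1 each had another probe that fell past 2-fold in both genotypes. That of Casp9 was 2.81-fold and 3.68-fold lower at 3 h, WT first, where the lead had -0.27 and 0.16 (log2). That of Apaf1 was 2.26-fold and 2.1-fold lower, where the lead had -0.28 and -0.40. The remaining Apaf1 probe had 0.12 and -0.10. None of the 13 was past 2-fold between the genotypes at either stage by its lead probe. For Diablo at 3 h the lead had -0.18, and the other probes had -1.52, -0.51 and -0.88, of which the first is past 2-fold. The median changes of the 13 genes were -0.27 in WT and 0.28 in Nr4a-TKO.

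All 10 genes of the death receptor list were measured. Tnfrsf10b, a receptor for TRAIL, rose 2.22-fold in WT and 2.15-fold in Nr4a-TKO. Cflar, whose product restrains caspase 8, rose by 1.13 in Nr4a-TKO and changed by 0.54 in WT. Its other probes changed by -0.02 to 1.71 in Nr4a-TKO and by 0.25 to 1.07 in WT. Tnfrsf1a and Casp8 fell by 1.75 and 1.22 in WT. In Nr4a-TKO the Tnfrsf1a lead had -0.46, while its other probe had -0.61 in WT and -0.95 in Nr4a-TKO. Fas counts as unchanged by its lead probe, which the files place on chromosome 4 at 40555124 to 40555183, while its 2 other probes rose by 1.37 and 1.27 in WT and changed by 0.82 and 0.81 in Nr4a-TKO. Tnfsf10, the gene of TRAIL, likewise changed little by its lead probe but fell at least 15.3-fold in WT and at least 13.4-fold in Nr4a-TKO by its other probe, which was not well above background at 3 h. These probes of Fas and Tnfsf10 were singled out after their values were seen. Tnfrsf1a was also the gene of this list past 2-fold between the genotypes, at -1.05 in naive T by its lead probe and -0.11 by its other probe. Its difference of changes was 1.29 by the lead and -0.34 by the other. Among the 11 partners and regulators of BIM and MCL1, Foxo1 alone passed 2-fold by its lead probe, with -1.62 in WT and -0.91 in Nr4a-TKO. Its other probe had -1.78 and -1.07. Single other probes of Foxo3 (-1.01 in WT) and Huwe1 (1.01 in Nr4a-TKO) also passed 2-fold. FOXO factors are known activators of Bcl2l11.

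Bax, Bbc3 and Pmaip1 are classical targets of p53, and 16 of 17 other genes of the p53 list were measured. In WT, 8 rose and 3 fell by 2-fold or more, against 10.4% and 11.9% of all genes. The list median was 0.99 where all genes had -0.12. In Nr4a-TKO, 3 rose and 2 fell, against 9.85% and 10.9%, with a median of 0.26. Cdkn1a, Phlda3 and Eda2r were not well above background on either naive array. They were measured through the 3 h arrays alone, could count only as rises, and enter both medians as lower bounds. The other genes that rose were Zmat3, Trp53inp1, Sesn2, Tnfrsf10b and Polk in WT, and Tnfrsf10b in Nr4a-TKO. Cdkn1a, the cell cycle inhibitor p21, was not well above background in naive T and rose at least 6.5-fold in WT and at least 13.3-fold in Nr4a-TKO. For Phlda3 the bounds were 6.89-fold in WT and 4.46-fold in Nr4a-TKO. Sesn2 (1.64), Trp53inp1 (1.39), Polk (1.33), Zmat3 (1.05) and Eda2r (at least 2.63-fold) passed 2-fold in WT, and in Nr4a-TKO Sesn2 had 0.81, Trp53inp1 0.75, Polk 0.25, Zmat3 0.01 and Eda2r at least 1.21-fold. Gadd45a and Sesn1 fell in both genotypes, by 2.74 and 1.83 in WT, and Btg2 by 1.01 in WT. The p53-induced nuclease gene Aen counts as unchanged by its lead probe, yet its 4 other probes rose by 2.39 to 2.61 in WT and by 2.20 to 2.38 in Nr4a-TKO.

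**Figure D4:**
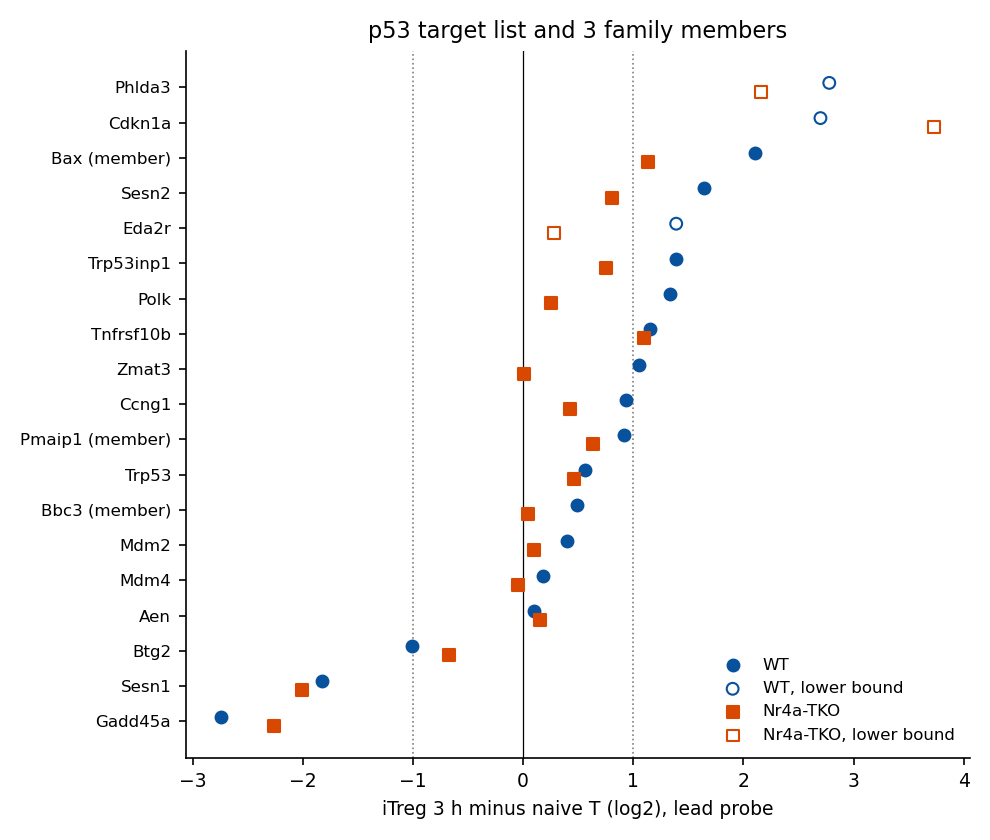
Change of the lead probe from naive T to iTreg at 3 h (log2) for the measured p53 targets and for Bax, Bbc3 and Pmaip1, in WT (circles) and Nr4a-TKO (squares); open symbols are lower bounds and dotted lines mark 2-fold. Most genes with a rise in WT, Bax among them, have the Nr4a-TKO point to the left of the WT point, and Cdkn1a has it to the right.

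Of the 13 p53 list genes measured on all 4 arrays, the change was smaller or more negative in Nr4a-TKO for 10, and the reverse held for 3. It was also smaller for Bax, Bbc3 and Pmaip1. Some of these differences were small, at -0.05 for Tnfrsf10b, -0.10 for Trp53 and -0.18 for Sesn1. That of Pmaip1 was -0.29, where the SD of a single difference between repeated spots was 0.28 for levels below 0. A difference of changes carries a larger error than that. Cdkn1a is not among the 13, and read 0.99 higher in Nr4a-TKO at 3 h. The median difference of changes was -0.23 over the list and 0.02 over all genes, of which 47.0% were below 0. Zmat3 at -1.05 and Polk at -1.09 were past 2-fold in that difference, against 2.37% of all genes that were lower by as much. The list was chosen with earlier results of these arrays known, and no test was made of it.

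The genes with the profile most like that of a member over the 4 arrays were taken from 14920 others, by the root mean square difference of profiles centred on their own mean. For Bcl2l1 they were Cd83 (0.181), an activation marker, Atf3 (0.293), a stress-induced transcription factor, and Bcl2a1c (0.303). The change of Cd83 was 3.63 for WT and 4.05 for Nr4a-TKO. For Bax they were 2900005J15Rik (0.05), the clock gene Per2 (0.071) and Arl5b (0.082), and Per2 changed by 2.05 and 1.20. For Pmaip1 they were Nudt2 (0.143), Vmn2r35 (0.147) and F730043M19Rik (0.155). With 4 arrays that differ mostly by stage, many genes have similar profiles, and the match is a description only.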

How the data were processed

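The authors deposited, for each array, the output of Agilent Feature Extraction 11.5.1.1, whose processed intensity has the background removed and spatial trends taken out, with probe coordinates on mm9. They also deposited a log2 value table; RMA (GeneSpring) is named in their methods, but this table differed from log2 processed intensity scaled to the 75th percentile by a near-constant amount per array (-0.343 to -0.321, SD 0.0029 over probes), so that scaling was used. The number of arrays limits the precision.

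Control spots and 115 to 160 flagged spots per array were left out, log2 values were averaged over the spots of a probe, and the 75th percentile over non-control spots was subtracted (R 4.3.3, limma 3.58.1, Python 3.11.15, pandas 2.3.3). A probe counted as well above background where that held for at least 1 of every 2 of its spots. A probe that missed this on 1 of 2 arrays compared took there the higher of its own value and the array's lowest value that passed (-4.31 to -3.95), and the difference is then a bound. A difference of changes was taken only where 4 arrays were well above background. Gene names are those of the files that are current RefSeq symbols. The counting was tested on simulated data. Members and lists were chosen with earlier results of these data known. Named genes are all members, list genes past 2-fold, the Bcl2a1 genes, and the 3 most similar profiles for members ranging over 1 log2 unit or more; Mcl1, Bcl2, Bak1 and Bbc3 ranged less. Promoter sequences are from RefSeq (GRCm38.p6), a table also used for names; the promoter of Pmaip1 was not searched. Of the caspase list and the B cell markers, 1 gene each is not reported here and was left out of the counts, medians and sums given.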

Additional observations from a re-analysis of the deposited data

Results flagged for a closer look

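For Bax the genotypes changed order between the stages. The lead probe was 0.51 (log2) higher on the Nr4a-TKO array in naive T and 0.47 lower at 3 h, a difference of -0.98, and the second probe went from 0.14 to -0.58. Bbc3 did the same on a smaller scale, from 0.12 to -0.33, a difference of -0.45. The SD of a difference between repeated spots at these levels was 0.09, with a 90th percentile of 0.16, which the 0.12 of Bbc3 does not exceed, and for the second Bax probe in naive T it was 0.28. With 1 array per group the difference itself was not tested.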

How the results depend on the processing

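Member values were recomputed under 8 other settings and counts under 10. None of the values past 2-fold changed sign, and 85 of 100 recomputed counts stayed within 1.5 times the reported count, though not always with the same members. Most of the reported counts were 0, and a 0 that stayed 0 is among those 85, so the total says little about the other counts. Of smaller values, the difference of changes of Bcl2l11 and the Nr4a-TKO changes of Bbc3 and Bak1 changed sign under 3 settings each, and the naive difference of Bak1, at 0.00, has no settled sign. The count of 1 member higher in Nr4a-TKO naive T became 0 under normexp with an offset of 50 and under no background correction, where low signals such as that of Pmaip1 are compressed by construction, and 0 at a 3-fold threshold. The count of 2 higher at 3 h became 1 under normexp with an offset of 50 or of 0, and under no background correction, where Pmaip1 was lost, with probes averaged per gene, where Bcl2l1 was lost at 0.91, and 0 at 3-fold. In Nr4a-TKO, the count of 2 members rising became 1 under quantile normalization of the processed intensity and at 3-fold. Bax lost its call there (0.92 under quantile normalization) and under normexp with quantile normalization, at an offset of 50 (0.89) or 0 (0.94). Under both normexp settings Bcl2l11 took its place in the count. With no background correction Bax kept its call in Nr4a-TKO, at 1.14. Quantile normalization of the processed intensity also put 1 member, Bax, past 2-fold in the difference of changes, which ranged from -1.04 to -0.85. At 1.5-fold, 4 members rose in WT, 2 fell in Nr4a-TKO, and the difference of changes held 1 member in each direction. Bcl2l1 rose by 2.86 to 3.66 in WT and by 3.54 to 4.28 in Nr4a-TKO, and its genotype difference at 3 h was 0.91 to 1.12. For Bcl2l11, settings that took another probe as the lead or averaged probes gave changes of up to 1.65 in WT and 1.91 in Nr4a-TKO. No paired analysis was possible because the labels give no replicate numbers, and with 1 array per group none could be left out.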
